A study of Mus musculus with 6 samples.

Results

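The genes examined here are 10 enzymes that make serine, its one-carbon products, cysteine, asparagine and proline: *Phgdh*, *Psat1*, *Psph*, *Shmt2*, *Mthfd2*, *Aldh1l2*, *Cbs*, *Cth*, *Asns* and *Pycr1*. They were chosen by symbol, and all 10 were found among the 59485 genes of the deposited table and among the 25802 genes that were tested. Sciatic nerves were taken at postnatal day 4 from 3 control and 3 mutant mice, with 1 library per animal. The mutants carried the genotype Ht-PA-Cre; Adar1fl/fl;R26R, in which the human tissue plasminogen (HtPA) promoter drives a Cre that recombines both floxed *Adar1* alleles in neural crest (NC) cells, and R26R marks these cells with YFP. The controls are labelled wild-type. In the crosses of the study this name stands for littermates without Cre that carry R26R and floxed *Adar1* on 1 or both chromosomes, so R26R and a floxed allele are shared by both genotypes. Endothelial, blood and other cells of the nerve that do not come from the NC keep their alleles in the mutants.

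Serine is built from the glycolytic intermediate phosphoglycerate by PHGDH, PSAT1 and PSPH in turn. In mitochondria, SHMT2 moves a carbon of serine onto tetrahydrofolate and releases glycine, MTHFD2 oxidizes the folate-bound carbon to the formyl level, and ALDH1L2 burns the formyl group to CO2 while making NADPH. Serine also gives its backbone to cysteine through CBS and CTH, the transsulfuration enzymes. ASNS amidates aspartate to asparagine, and PYCR1 carries out the last step of proline synthesis. Many of these genes are known targets of ATF4, the transcription factor of the integrated stress response, and proliferating and myelin-forming cells draw on serine for nucleotides and membrane lipids.

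Values are normalised read counts, that is, reads counted on a gene divided by a size factor of the library. Reads on genes numbered 50938349 to 78250094 per library. Log2 fold changes (mutant over control) and their standard errors (SE) come from limma on log2(value + 1), a scale that understates changes of low genes, and each adjusted p is corrected over all 25802 genes by the Benjamini-Hochberg method. A change counts as past the threshold where the unadjusted p is at most 0.05 and the fold change is 2 or more, in either direction. The targeted gene *Adar* did not fall: it ranged from 1133 to 2066 in the controls and from 9311 to 11768 in the mutants. This does not check the deletion, since with 1 value per gene the floxed segment cannot be read apart from the rest, and cells outside the NC keep their alleles. For this reason the libraries go by their labels below, as control-labelled or mutant-labelled, and all directions rest on these labels.

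In mutant-labelled libraries, 5 of the 10 genes were higher and past the threshold, namely *Asns*, *Aldh1l2*, *Cth*, *Mthfd2* and *Shmt2*, and 0 were lower. Over all tested genes, 24.2% passed the threshold, 13.9% upward and 10.4% downward. All 5 also had an adjusted p of at most 0.05, a rule by which 19.9% of all tested genes passed, 11.5% upward and 8.46% downward. The largest rises, of *Asns* and *Aldh1l2*, took ranks 278 and 345 among all log2 fold changes. The serine pathway itself (*Phgdh*, *Psat1* and *Psph*), *Pycr1* and *Cbs* did not pass. The median log2 fold change of the 10 genes was 0.96, against 0.03 over all tested genes. In 7 of the 10, the 3 values of a genotype all lay on 1 side of those of the other, 6 of them higher and 1 lower in mutant-labelled libraries. The same held for 49.2% of all tested genes, with 25.9% higher and 23.3% lower. Among the mutant-labelled libraries, the highest value was 1.31 times the lowest for *Asns*, 1.22 times for *Aldh1l2*, 1.13 times for *Mthfd2*, 1.26 times for *Shmt2* and 1.46 times for *Cth*.

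**Figure D1:**
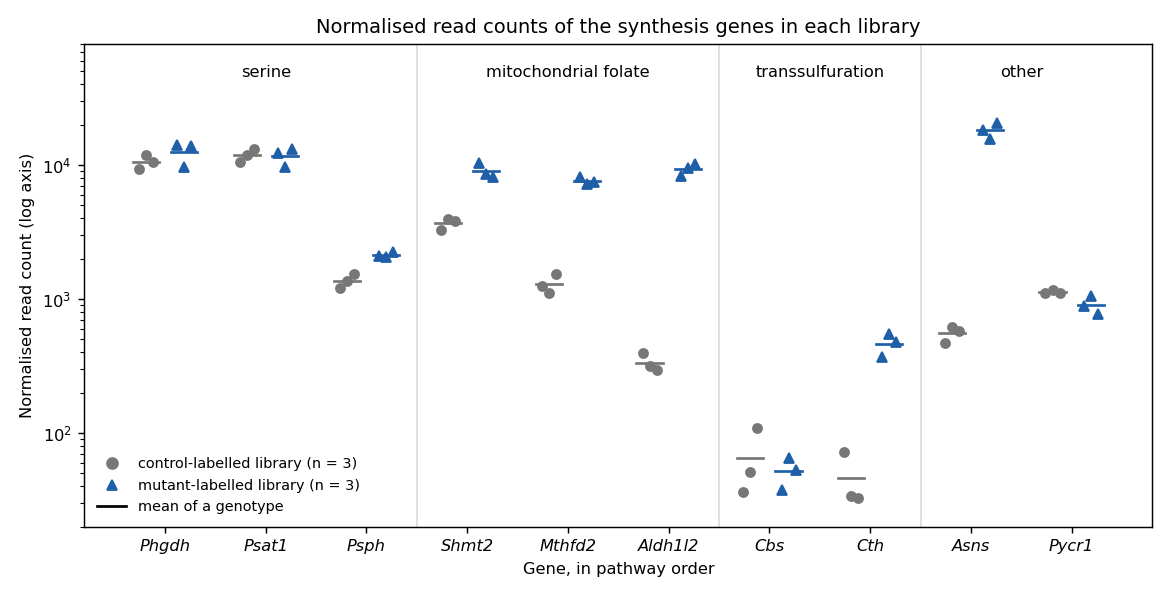
Normalised read counts (log axis) of the 10 genes in pathway order, with 1 point per library and a bar at the mean of each genotype. The control-labelled and mutant-labelled points are far apart for *Aldh1l2* and *Asns*, apart for *Shmt2*, *Mthfd2* and *Cth*, and mixed for *Phgdh*, *Psat1* and *Cbs*.

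Whole nerves hold several cell types, so each value is a sum over them. By these values alone, fewer cells of a type cannot be told apart from less RNA per cell. Among 12 Schwann cell markers, 8 were lower and 0 higher, and their summed level was 3670126 to 4492325 in control-labelled and 119653 to 564340 in mutant-labelled libraries. *Sox10*, *Ncam1*, *Ngfr* and *Cdh19* of that list did not pass the threshold. At the same age, the study's counts on electron micrographs gave similar numbers of Schwann cells in mutants and controls. Of 7 erythroid markers, 6 were lower and 0 higher (summed level 55078 to 77130.1 against 5151 to 15734). Of 9 macrophage markers, 5 were lower and 1 higher (11578.5 to 15325 against 5259 to 7136.5). Of 9 fibroblast markers, the collagens *Col1a1*, *Col1a2* and *Col3a1* were lower, *Dpp4*, which another gene overlaps on its strand, was higher and the other 5 did not pass, with a list median of 0.0049 on the log2 scale. Of 9 skeletal muscle markers, 8 were higher and 0 lower (6961 to 34681 against 44711 to 329471). The lymphocyte markers summed to 106 to 243 in control-labelled and 349 to 478 in mutant-labelled libraries, and the hepatocyte markers to 33.3 to 56.7 and 98.9 to 412. Of the lymphocyte markers past the threshold, *Cd4* was higher, whereas *Cd2*, *Cd8a* and *Ncr1*, like the hepatocyte markers *Cps1* and *Serpina1b // Serpina1a // Serpina1c*, reached the filter on low values through the mutant-labelled libraries alone, so that their being higher there follows from the filter. Pericyte and smooth muscle markers had 2 of 8 higher, perineurial markers 1 of 7 higher and 2 lower, and mast cell and neutrophil markers 1 of 6 lower. None of the 9 endothelial, 6 adipocyte and 5 proliferation markers passed. All 9 endothelial log2 fold changes were above 0 (median 0.50), and the endothelial sums did not overlap, at 19377 to 28525 in control-labelled and 28780.0 to 38223.5 in mutant-labelled libraries. Some libraries stood apart from the rest of their genotype. Mutant replicate 3 had a muscle sum of 329471 against 101114 and 44711 in the other two, and mutant replicate 2 an adipocyte sum of 23920.5 against 3284 and 4445, with sums of 5377 to 11537.5 in control-labelled libraries. Without either of these libraries, 5 of the 10 synthesis genes were still higher and 0 lower. Each of the 13 marker lists had reads on all of its genes in at least 1 library. The part of these cell types in the changes of the 10 genes was not tested.

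*Phgdh* (GSMG0025795, mm10 chromosome 3, 98313170 to 98339969, minus strand) encodes the dehydrogenase that commits phosphoglycerate to serine. Control-labelled libraries 1 to 3 gave 9413, 11931 and 10494, and mutant-labelled libraries 1 to 3 gave 14047, 9710.2 and 13825. Mutant replicate 2 lay among the controls, and the others lay above them. The log2 fold change was 0.23 (95% interval -0.13 to 0.59, adjusted p = 0.299), and a 2-fold rise lies outside that interval. The transcripts of 9 other annotated genes, among them *Phgdh-ps1*, match *Phgdh* at 95% identity or more over at least 130 bases on the same strand, and reads of the gene and these copies can be split by the counting.

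*Psat1* (GSMG0020150, chromosome 19, 15905123 to 15925060, minus strand), the aminotransferase that takes nitrogen from glutamate, had values of 10499, 11904 and 13168 in control-labelled and 12294, 9684 and 13184 in mutant-labelled libraries. The 2 sets of values overlapped over most of their range. Its log2 fold change was -0.02 (95% interval -0.33 to 0.29, adjusted p = 0.913), and 0.14 with libraries rescaled to the same total.

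*Psph* (GSMG0031119, chromosome 5, 129765558 to 129787253, minus strand), the phosphatase that releases free serine, had values of 1210.4, 1370.1 and 1542 in control-labelled and 2093, 2043 and 2227 in mutant-labelled libraries. Every mutant-labelled value was above every control. Its change, 0.63 on the log2 scale (SE 0.12, adjusted p = 0.0045), was below the 2-fold limit, and its 95% interval ran from 0.36 to 0.91. Part of an annotated transcript of *Psph* is complementary to *Cct6a* over 452 bases, and *Cct6a* itself had a log2 fold change of 0.42.

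*Shmt2* (GSMG0004746, chromosome 10, 127517123 to 127522446, minus strand) opens the mitochondrial folate pathway. Values were 3302, 3926 and 3816 in control-labelled and 10269, 8611 and 8142 in mutant-labelled libraries. The lowest mutant-labelled value was 2.07 times the highest control. *Shmt2* rose from a mean of 3681 ± 333 to 9008 ± 1118 (SD, n = 3), or 2.45-fold (log2 fold change 1.29, SE 0.12, adjusted p = 0.000104).

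*Mthfd2* (GSMG0033242, chromosome 6, 83305694 to 83317604, minus strand) encodes the mitochondrial dehydrogenase and cyclohydrolase, an enzyme known from embryonic and proliferating cells. Its values were 1251, 1119 and 1536 in control-labelled libraries and 8204, 7241 and 7490.2 in mutant-labelled ones. The mutant-labelled values were close to each other, and the lowest was 4.71 times the highest control. *Mthfd2* rose from 1302 ± 213 to 7645 ± 499, or 5.87-fold (log2 fold change 2.56, SE 0.13, adjusted p = 7.08e-06). An unnamed gene (GSMG0033243) overlaps it on its strand and did not exceed 40.5 in any library, and another on the other strand (GSMG0068426) had values of 24.4 to 30.2 in control-labelled and 88.7 to 150.3 in mutant-labelled libraries.

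*Aldh1l2* (GSMG0004395, chromosome 10, 83487447 to 83534140, minus strand) rose most in this branch. Its values were 395, 316 and 298 in control-labelled and 8268, 9468 and 10098 in mutant-labelled libraries. The groups did not come near each other, the lowest mutant-labelled value being 20.9 times the highest control. The means went from 336 ± 51.9 to 9278 ± 929.7, or 27.6-fold (log2 fold change 4.79, SE 0.14, adjusted p = 8.72e-07). Its annotated transcript is complementary to that of *D10Wsu102e* over 1056 bases. *D10Wsu102e* had values of 2994 to 3380 in control-labelled and 2735 to 3218 in mutant-labelled libraries, and a log2 fold change of -0.09.

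*Cbs* (GSMG0017360, chromosome 17, 31612623 to 31637205, minus strand), which condenses homocysteine with serine, was barely detected. Its values of 36.6, 51.0 and 109 in control-labelled and 37.8, 65.6 and 53.4 in mutant-labelled libraries rest on 33 to 86 reads per library. Control replicate 3 was the highest of all 6 libraries. The log2 fold change of -0.20 had a 95% interval of -1.33 to 0.93 (adjusted p = 0.777), which includes a fall of 2-fold.

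*Cth* (GSMG0026232, chromosome 3, 157894249 to 157925063, minus strand), which splits cystathionine to release cysteine, had values of 72.2, 34.0 and 32.9 in control-labelled and 372, 544 and 479.7 in mutant-labelled libraries. Control replicate 1 stood above the other controls, and the lowest mutant-labelled value was still 5.16 times higher than it. *Cth* rose from 46.4 ± 22.3 to 465 ± 86.8, or 10.04-fold (log2 fold change 3.38, SE 0.36, adjusted p = 0.000225). Between *Cbs* and *Cth*, the difference of the changes was not tested.

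*Asns* (GSMG0032719, chromosome 6, 7675165 to 7693200, minus strand) had the largest rise of the 10. Its values were 469, 623 and 579 in control-labelled and 18215, 15660.5 and 20548 in mutant-labelled libraries. The lowest mutant-labelled value was 25.1 times the highest control. *Asns* went from 557 ± 79.4 to 18141 ± 2445, or 32.6-fold (log2 fold change 5.02, SE 0.14, adjusted p = 8.72e-07). An unnamed gene on the other strand (GSMG0068338) overlaps it, with values of 7.56 to 13.3 in control-labelled and 198 to 425 in mutant-labelled libraries. The library kit kept strand (oriented cDNA), but the counting is not stated to use it, so reads of such overlapping genes cannot be told apart.

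*Pycr1* (GSMG0007748, chromosome 11, 120635712 to 120643769, minus strand) had values of 1100.4, 1167 and 1106 in control-labelled and 889, 1054 and 772 in mutant-labelled libraries. All 3 mutant-labelled values were below the controls. The log2 fold change was -0.32 (95% interval -0.65 to 0.00, adjusted p = 0.113), well short of the 2-fold limit. *Pycr1* is a gene commonly counted among ATF4 targets together with *Asns*, so their promoters are shown side by side.

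The core of the C/EBP-ATF response element, TGATGNAA on either strand, was searched in the RefSeq promoter windows (GRCm38.p6, the same assembly as mm10), which run from 250 bases before to 50 bases after a transcription start. Of the 10 genes, 8 have such a window, and *Aldh1l2* and *Cth* have none in the table used. The core was found in 2 of the 8, *Asns* and *Pycr1*, and in 4.51% of all 27025 genes with a window. These are the window of *Asns* at chr6:7693160-7693459, that of *Pycr1* at chr11:120643699-120643998 and, for contrast, that of *Mthfd2* at chr6:83317555-83317854, which has no match. All are on the minus strand and written 5′ to 3′, with the match in capitals.
Asns: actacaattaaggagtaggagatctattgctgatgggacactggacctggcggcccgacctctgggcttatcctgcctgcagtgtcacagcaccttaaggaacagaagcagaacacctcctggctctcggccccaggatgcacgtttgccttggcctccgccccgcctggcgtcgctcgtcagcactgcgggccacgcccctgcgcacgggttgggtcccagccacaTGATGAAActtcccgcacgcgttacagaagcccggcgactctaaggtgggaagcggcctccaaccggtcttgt
Pycr1: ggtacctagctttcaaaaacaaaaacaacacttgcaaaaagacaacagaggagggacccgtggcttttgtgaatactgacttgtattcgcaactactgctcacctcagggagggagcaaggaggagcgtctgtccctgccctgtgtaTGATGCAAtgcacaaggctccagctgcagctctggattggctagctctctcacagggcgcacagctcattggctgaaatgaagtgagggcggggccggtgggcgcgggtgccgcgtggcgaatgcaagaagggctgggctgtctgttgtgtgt
Mthfd2: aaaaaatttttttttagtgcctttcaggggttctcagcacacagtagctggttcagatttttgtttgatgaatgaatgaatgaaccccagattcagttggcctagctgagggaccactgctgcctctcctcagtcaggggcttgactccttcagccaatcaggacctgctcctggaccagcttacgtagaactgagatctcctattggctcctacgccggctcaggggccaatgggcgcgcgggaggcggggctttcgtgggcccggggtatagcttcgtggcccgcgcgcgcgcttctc
The first base of the match is at -23 in *Asns* and at -103 in *Pycr1*, with the first transcribed base at 1. *Asns*, which holds it, rose 32.6-fold, and *Pycr1*, which holds it too, was lower without passing the threshold. The windows of *Shmt2*, *Phgdh*, *Psat1*, *Psph* and *Cbs* hold no match.

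**Figure D2:**
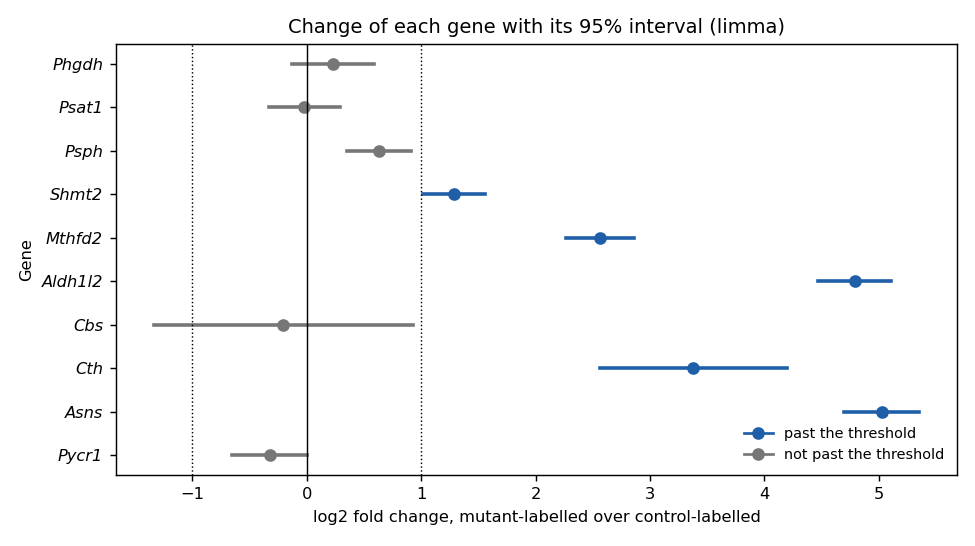
Log2 fold change of each gene (point) with its 95% interval from limma (line). Dotted lines mark 2-fold changes. Intervals of *Shmt2*, *Mthfd2*, *Aldh1l2*, *Cth* and *Asns* lie beyond the upper 2-fold line, while those of *Phgdh*, *Psat1*, *Cbs* and *Pycr1* include 0 and that of *Psph* (0.36 to 0.91) lies between 0 and the line.

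Several of the enzymes have a counterpart that runs a like reaction, in the cytosol or beside it in the mitochondrion, and the 6 counterparts described here moved in different ways. *Shmt1*, the cytosolic serine hydroxymethyltransferase, rose from 227 ± 20.3 to 505 ± 70.7 (log2 fold change 1.14, adjusted p = 0.0021). *Mthfd1l*, which releases formate from mitochondria, rose from 2053 ± 156 to 4288 ± 144 (1.06, adjusted p = 0.000109), and dropped just under 2-fold, to 0.95, when libraries were rescaled to the same 75th percentile. *Mthfd2l*, the mitochondrial paralog of *Mthfd2* that is known from adult tissue, fell from 4274 ± 219 to 1631 ± 159 (-1.39, adjusted p = 4.65e-05). In the table, 2 other genes overlap *Mthfd2l* on its strand.

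The other 3 did not pass the threshold. *Mthfd1*, the cytosolic trifunctional enzyme, had values of 3377 ± 163 and 3351 ± 371 (log2 fold change -0.02), and *Aldh1l1*, the cytosolic formyl-tetrahydrofolate dehydrogenase, 409 ± 96.3 and 396 ± 97.2 (-0.05). The cytosolic *Pycrl*, a counterpart of *Pycr1*, had values of 666 ± 59.0 and 852 ± 36.8 (0.36, adjusted p = 0.0666).

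The ratio of an enzyme to its counterpart was taken within each library, where the size factor cancels out. These are ratios of reads, not corrected for gene length. The log2 ratio of *Mthfd2* to *Mthfd2l* was -1.79, -1.85 and -1.53 in control-labelled and 2.18, 2.18 and 2.32 in mutant-labelled libraries. More reads fell on *Mthfd2l* in every control and on *Mthfd2* in every mutant-labelled library, and the ratio shifted by 3.96 on the log2 scale (SE 0.11), or 15.5-fold. The ratio of *Mthfd2* to *Mthfd1* shifted from -1.39 to 1.19 on average, and that of *Aldh1l2* to *Aldh1l1* from -0.27 to 4.57. In these 3 ratios the genotypes did not overlap, which gives the smallest p an exact two-sided permutation test can reach with 3 against 3 libraries (p = 0.1, adjusted p = 0.125 over the 5 ratios). The ratio of *Pycr1* to *Pycrl* moved the other way, by -0.68 (exact p = 0.1). The ratio of *Shmt2* to *Shmt1*, which both rose, shifted by 0.14 (SE 0.09, exact p = 0.2).

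**Figure D3:**
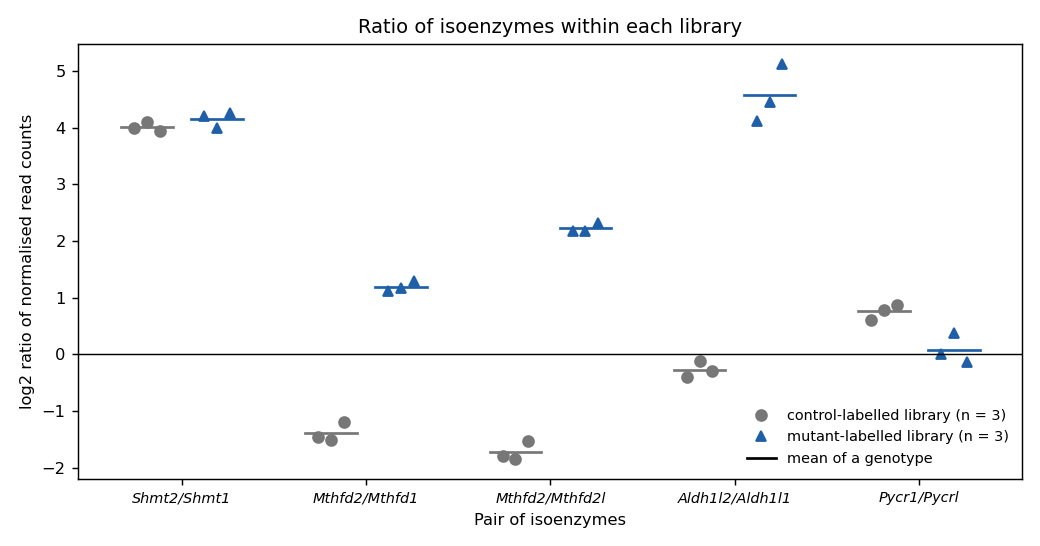
Log2 ratio of normalised read counts of 5 pairs of isoenzymes in each library (points), with the mean of each genotype (bars). Ratios above 0 mean more reads on the first gene. The mutant-labelled points are above all controls for *Mthfd2/Mthfd1*, *Mthfd2/Mthfd2l* and *Aldh1l2/Aldh1l1*, and below them for *Pycr1/Pycrl*.

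The genes that feed or draw on these pathways were taken as lists. Beside the counts below, 13.9% of all tested genes were past the threshold and higher, and 10.4% lower. Among 16 other folate and glycine cleavage genes, 0 were past the threshold and higher and 2 were lower. *Gldc*, the decarboxylase of the glycine cleavage system, fell from 437 ± 97.7 to 111 ± 72.4 (log2 fold change -2.13, adjusted p = 0.00505). *Gcat*, whose enzyme makes glycine and acetyl-CoA in the breakdown of threonine, fell from 1422 ± 102 to 443 ± 93.5 (-1.70, adjusted p = 0.000202), and another gene overlaps it on its strand. The median of the list was -0.22. None of the 13 enzymes of de novo purine synthesis, a main consumer of formyl groups, passed the threshold with limma, and their log2 fold changes ran from -0.78 to 0.83, although DESeq2 placed 1 of them past it, higher. The highest, *Adssl1*, the muscle form of its enzyme, was named after its values were seen: 326, 176 and 283 in control-labelled and 306, 290.4 and 1031 in mutant-labelled libraries, so that mutant replicate 3 alone stood out. That library also had the highest skeletal muscle sum, and the part of muscle in the value was not tested. Without control replicate 2 or mutant replicate 2, 1 gene of the list was past the threshold and lower.

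Of 18 tested genes of the methionine cycle and of sulfur metabolism (21 listed), 0 were higher and 3 lower. *Ahcy*, the hydrolase that forms homocysteine, fell from 4480.0 ± 1866 to 1689 ± 144 (log2 fold change -1.33, adjusted p = 0.00445), with control replicate 2 far above the other controls. *Ahcyl2* changed by -1.16 and *Mpst*, a sulfurtransferase in the breakdown of cysteine, by -1.09, and both were just under 2-fold (-0.99 and -0.93) with libraries rescaled to the same total. *Ahcyl2* was also under 2-fold without mutant replicate 2 (-0.85) and *Mpst* without mutant replicate 3 (-0.93).

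In the list of 8 proline and ornithine genes, *Aldh18a1*, which makes the precursor that PYCR1 reduces, was the only gene past the threshold. It rose from 5203 ± 344 to 10579.7 ± 1259 (log2 fold change 1.02, adjusted p = 0.000235), at the 2-fold limit. It was under the limit without control replicate 1, control replicate 2 or mutant replicate 1 (0.93 at the lowest) and at the same 75th percentile (0.90), where 1 gene of the list was past the threshold and lower. Without control replicate 3 or mutant replicate 2, 1 gene was lower beside the 1 that was higher. The lowest log2 fold change of the list was that of *Aldh4a1*, at -0.98, named after its value was seen.

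Among 14 other enzymes of non-essential amino acids, 2 were higher and 2 lower. *Bcat1*, the cytosolic branched-chain aminotransferase, rose from 480.2 ± 98.8 to 2159 ± 117 (log2 fold change 2.19, adjusted p = 4.76e-05). *Ass1*, which the table lists together with *Gm5424* and which joins citrulline to aspartate, changed by 1.55. *Asrgl1*, which hydrolyses asparagine, went the opposite way to *Asns*, from 2626 ± 301 to 674 ± 39.7 (-1.96, adjusted p = 1.85e-05). *Aspa*, which cleaves acetylaspartate, changed by -1.28. For *Asrgl1* and *Aspa*, 1 other gene each overlaps on the same strand.

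The enzymes and carriers that consume serine were tested for 11 of 14 genes. *Serinc2* was the only one past the threshold, from 60.1 ± 30.7 to 283 ± 44.7 (log2 fold change 2.32, adjusted p = 0.00185), and the list had a median of -0.30 with 3 of the 11 values above 0. Another gene overlaps *Serinc2* on its strand.

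ATF4 and 15 genes known to respond to it or to stand beside it in the stress response formed the list with the highest median. Of the 15 genes with reads in control-labelled libraries, 12 were past the threshold and higher and 0 lower, with a median log2 fold change of 2.65, and all 15 values were above 0. The 16th, *Fgf21*, reached the filter on low values through the mutant-labelled libraries alone and is left out of these counts. With it, the median is 2.83. *Chac1*, which degrades glutathione, rose from 21.0 ± 8.9 to 3295 ± 537 (log2 fold change 7.31, adjusted p = 4.28e-06), and *Trib3*, a pseudokinase that restrains ATF4, from 79.8 ± 41.8 to 10440.7 ± 2083 (7.15, adjusted p = 8.31e-06). *Gdf15*, a secreted stress hormone, changed by 6.61. For *Chac1* and *Gdf15*, 1 other gene each overlaps on the same strand. *Fgf21*, another such hormone, had no reads in any control-labelled library and values of 49.5, 110.0 and 60.3 in mutant-labelled ones, which makes it at least 22-fold higher over a floor of 3 reads per library. The 3 genes that did not pass are named after their values were seen: *Atf4*, *Ddit4* and *Vldlr*. The *Atf4* transcript had values of 18550.4 ± 477 and 33488 ± 1821, a log2 fold change of 0.85 (adjusted p = 0.000137) that is below 2-fold, and of 1.01 with libraries rescaled to the same total. Of the list with *Fgf21*, 15 genes have a promoter window, and the response element core lies in 6 of them (40.0%), *Fgf21* included. Over all genes with a window, the share is 4.51%.

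**Figure D4:**
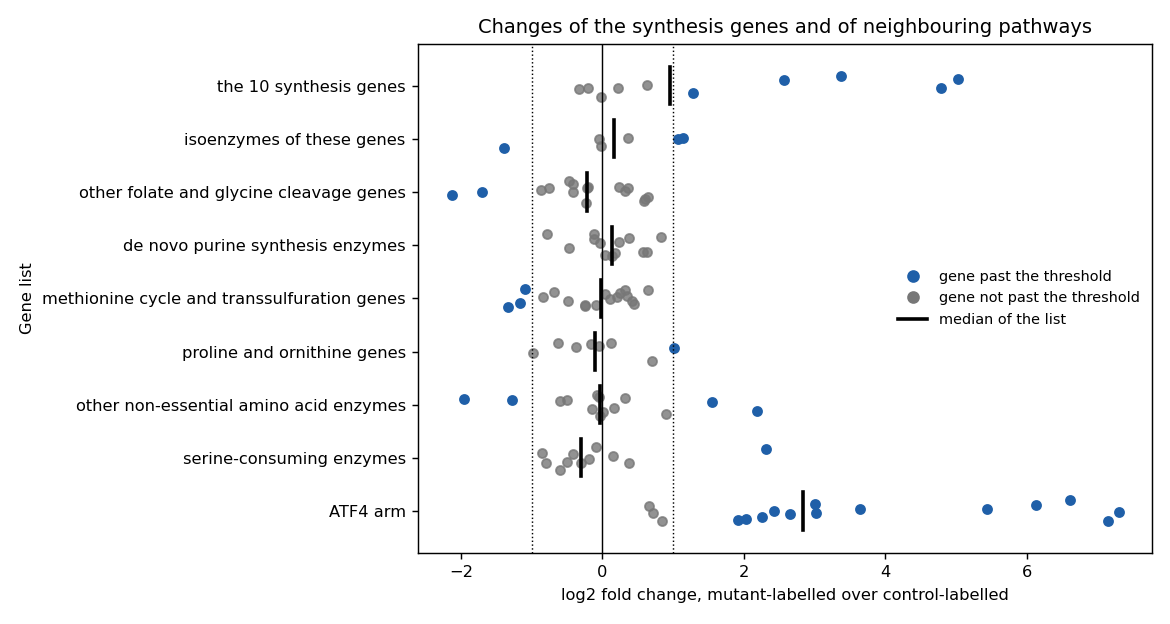
Log2 fold changes of the tested genes in each list, with 1 point per gene, blue where the gene passed the threshold, and a black bar at the median of the list. Dotted lines mark 2-fold changes. The bars of the 10 synthesis genes (0.96) and of the ATF4 list (2.83 with *Fgf21*) are to the right of 0, while the other lists have medians between -0.30 and 0.17.

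Likeness to *Asns* of the 6 centred log2 values was searched among 16198 genes with a symbol and a mean of at least 10. The nearest genes were *Ccl2*, *Herc6*, *Cfb*, *Oxgr1* and *Tnfaip2*. Their Euclidean distances from *Asns* were 0.36, 0.36, 0.46, 0.54 and 0.55 on the log2 scale. Values were centred over both genotypes, so nearness follows mainly from a change of like size. These genes had log2 fold changes of 4.70 to 5.28, against 5.02 for *Asns*. Shared regulation was not tested. *Oxgr1* had no reads in the control-labelled libraries and passed the filter through the others alone, so its distance depends on the pseudocount and its likeness to *Asns* is not measured.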

How the data were processed

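The authors mapped paired-end reads of poly-A RNA to mm10 with STAR 2.4.0, counted reads on constitutive regions of FAST DB genes and scaled them with DESeq2. The deposited values (unit: signal, that is, normalised read counts) are whole multiples, within 0.01, of the value of 1 read (0.727 to 1.27) for 100% of the values, so reads were recovered for edgeR and DESeq2. Whether counting used strand is not given in the sources used here.

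Groups and replicate numbers come from the labels. The limma fit of log2(value + 1), with lmFit and a trended eBayes, covered the 25802 genes with a mean of at least 10 in at least 1 genotype. The study's limits of p and fold change were kept (unadjusted p of at most 0.05, 2-fold), with Benjamini-Hochberg adjustment over all tested genes. The study applied them to DESeq2 results for genes above an intergenic background. Its counts of changed genes are therefore not comparable with those given here. Errors are SDs, and n = 3 animals per genotype. Intervals are limma's 95% intervals. No 2 libraries of the same genotype agreed within sampling noise.

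The 10 genes and all gene lists (8 of pathways and 13 of cell type markers) were chosen with earlier results of these data known. Named are the 10 genes, their 6 counterparts, up to 4 genes per direction and pathway list with the largest change past the threshold, and the genes nearest to the most changed one. The values of some single genes are left out and not reported here. Lists are described by counts and medians with no test of the list. Copies were searched with blastn 2.17.0 in GENCODE M21 transcripts. Scripts were tested on simulated data. R 4.3.3, limma 3.58.1, edgeR 4.0.16, DESeq2 1.42.0, Python 3.11.15 and matplotlib 3.10.9 were used.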

Additional observations from a re-analysis of the deposited data

How the results depend on the processing

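Each result was computed again under the 12 planned settings (the 5 ratios under the pseudocounts only) and after dropping each of the 6 libraries. The count of 5 higher and 0 lower genes held in all of these fits, including an adjusted p, edgeR, DESeq2 and the replicate block. On the recovered reads, edgeR placed 5805 and DESeq2 6026 of all tested genes past the threshold, against 6251 with limma. The median of the 10 genes moved from 0.96 to 1.12 with libraries rescaled to the same total and to 0.84 at the same 75th percentile, and ran from 0.88 to 1.02 with a library left out. Those rescalings moved the median of all tested genes from 0.03 to 0.19 and to -0.08. Genes near 0 changed sign: with the same total, *Psat1* was at 0.14, *Mthfd1* at 0.15 and *Aldh1l1* at 0.11. With a library left out, *Psat1* ran from -0.11 to 0.11, *Cbs* from -0.54 to 0.23, *Mthfd1* from -0.10 to 0.046 and *Aldh1l1* from -0.19 to 0.16. The shifts of the 5 isoenzyme ratios kept their direction under both other pseudocounts and with each library left out. The replicate numbers name different animals. The deviations of same-numbered libraries correlated at -0.062, -0.055 and 0.009 across genes. Same-numbered libraries thus showed no clear shared pattern, although deviations from means of 3 libraries cannot exclude a pairing. With the replicate block, 6149 genes passed against 6251, and 5 of the 10 genes were higher and 0 lower as before. *Cbs*, at 33 to 86 reads per library, and *Cth*, at 26 to 564, rest on few reads.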
